A study of Mus musculus with 10 samples.

Results

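The genes described here are 31 genes of the peroxisome, chosen by name: 12 peroxins (Pex genes), 3 enzymes of ether lipid synthesis and 16 other peroxisomal enzymes and carriers. Each was taken from the deposited log2 expression table by its gene symbol. All 31 were measured, each by a single feature of the array, among 30901 genes with a symbol. The kidneys came from mice given cyclosporin A (CsA), an immunosuppressant that blocks calcineurin, at 60 mg/kg by daily subcutaneous injection for 7 days (5 samples), and from mice given its solvent, cremophore, in the same way (vehicle, 5 samples). Every animal was 10 to 12 weeks old, of C57BL/6 background, and on chow with 0.05% sodium. All belonged to a line in which doxycycline can delete Vhl through a Pax8-driven activator, which acts in kidney tubule cells. The sources used here do not state doxycycline treatment for these samples. Vhl itself averaged 6.13 ± 0.17 in the 5 CsA kidneys (SD) and 6.14 ± 0.14 in the 5 vehicle kidneys. Those levels cannot show whether it was deleted, since the labels mark no sample as undeleted. Nothing in the labels ties each sample to a separate animal. The spread behind each p-value is therefore that between these samples and may be technical, apart from the sex difference among CsA arrays given below. The series asked which changes come before the renal injury of longer CsA dosing.

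Peroxisomes are small organelles bounded by a single membrane that oxidise very long, branched and dicarboxylic fatty acids, make and break down hydrogen peroxide, and carry out the first steps of ether lipid (plasmalogen) synthesis. Their enzymes are made in the cytosol and imported folded: PEX5 carries those with the C-terminal signal PTS1, PEX7 carries the few with the N-terminal signal PTS2, and a cycle of docking, ubiquitination and extraction returns PEX5 to the cytosol. In the kidney they are most abundant in the proximal tubule.

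Sex was checked first, because several metabolic genes differ between male and female mouse kidney and the labels give no sex. CsA replicates 1 and 2 had Xist, the X-inactivation transcript, at 9.15 or above, while 4 Y-linked genes averaged 4.03 or below, so these arrays held female RNA. The other 8 arrays had Xist at 4.82 or below and the Y-linked mean at 6.91 or above. Every vehicle array was male, so sex and any other property of those 2 arrays cannot be told apart. The differences of the 31 genes are therefore given for all 10 arrays and for the 8 male arrays (3 CsA, 5 vehicle). Array medians over all features with a symbol lay between 5.20 and 5.29 log2 units in CsA arrays, with the female CsA replicate 2 highest. In vehicle arrays they lay between 5.18 and 5.23.

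Over all 10 arrays, 7 of the 31 peroxisomal genes fell in CsA kidneys and 1 rose. The falls were in Agps and Far1 of ether lipid synthesis, Hsd17b4 and Acox3 of branched-chain oxidation, Phyh of alpha-oxidation, and the peroxins Pex3 and Pex7, and the rise was in the thiolase gene Acaa1b. A call is a limma adjusted p under 0.05, with Benjamini-Hochberg adjustment over all 30901 genes. The 8 calls are 25.8% of the 31 genes, and the same test called 6.49% of all genes, 3.54% lower and 2.95% higher. The median log2 difference, CsA minus vehicle, was -0.14 over the 31 genes and 0.01 over all genes, and 18 of the 31 (58.1%) had an unadjusted p under 0.05, against 20.8% of all genes. In the 8 male arrays 2 of the 31 genes fell, Agps and Hsd17b4, and none rose, where limma called 3.17% of all genes (1.64% lower and 1.53% higher). The median there was -0.08 over the 31 genes and 0.00 over all genes, and 16 of the 31 (51.6%) had an unadjusted p under 0.05, against 18.8% of all genes.

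**Figure D1:**
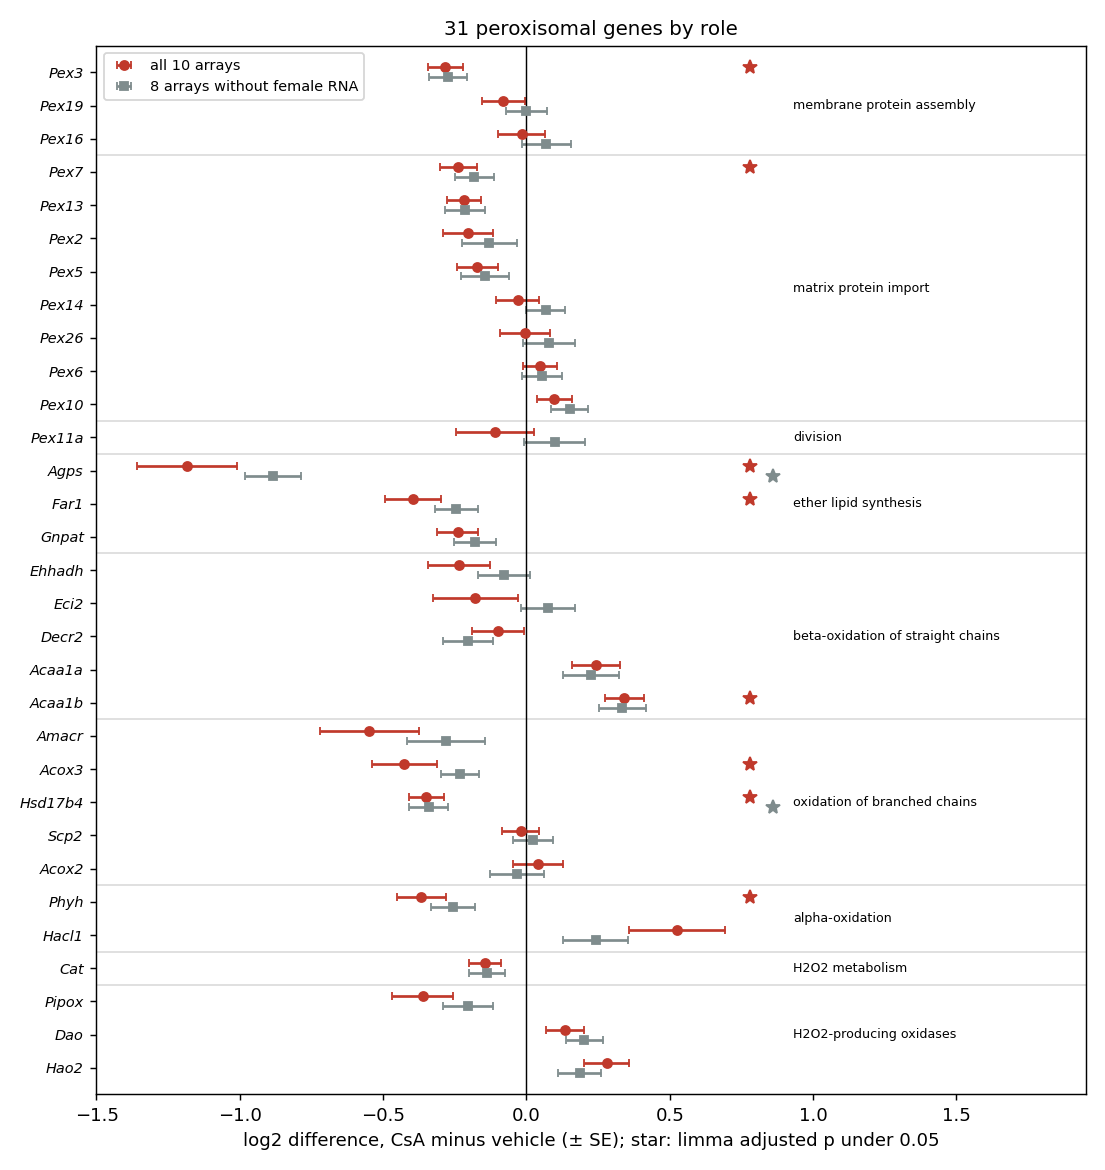
Log2 difference between CsA and vehicle kidneys (horizontal axis, ± SE) for the 31 peroxisomal genes grouped by role, for all 10 arrays (circles) and for the 8 arrays without female RNA (squares). Stars mark a limma adjusted p under 0.05, which 8 genes passed over all arrays and 2 over the male arrays, and Agps lies farthest from 0 at -1.18 and -0.88.

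For 11 of the 31 genes CsA and vehicle values lay fully apart, with every CsA value below every vehicle value in 9 and above in 2. That is 35.5% of the 31, against 9.09% of all genes (5.05% lower and 4.04% higher). The 3 genes whose groups did not overlap without passing limma's threshold were Pex13, the catalase gene Cat and Hao2. In the 8 male arrays 13 of the 31 genes lay fully apart (9 lower and 4 higher), against 15.1% of all genes (8.1% lower and 6.98% higher). The arrays differed in how many of these genes left the vehicle range. CsA replicates 1 and 2 had 20 and 19 of the 31 genes below the lowest vehicle value, and CsA replicates 3, 4 and 5 had 13, 10 and 13. The share of all genes below the vehicle range was similar in the 5 arrays, between 21.2% and 23.2%. Genes above the vehicle range numbered 5, 4, 6, 7 and 9 in CsA replicates 1 to 5, or 16.1%, 12.9%, 19.4%, 22.6% and 29% of the 31, against 23.3%, 26.8%, 21.4%, 21.8% and 20.7% of all genes. The 2 female arrays thus held the most peroxisomal genes below the vehicle range.

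**Figure D2:**
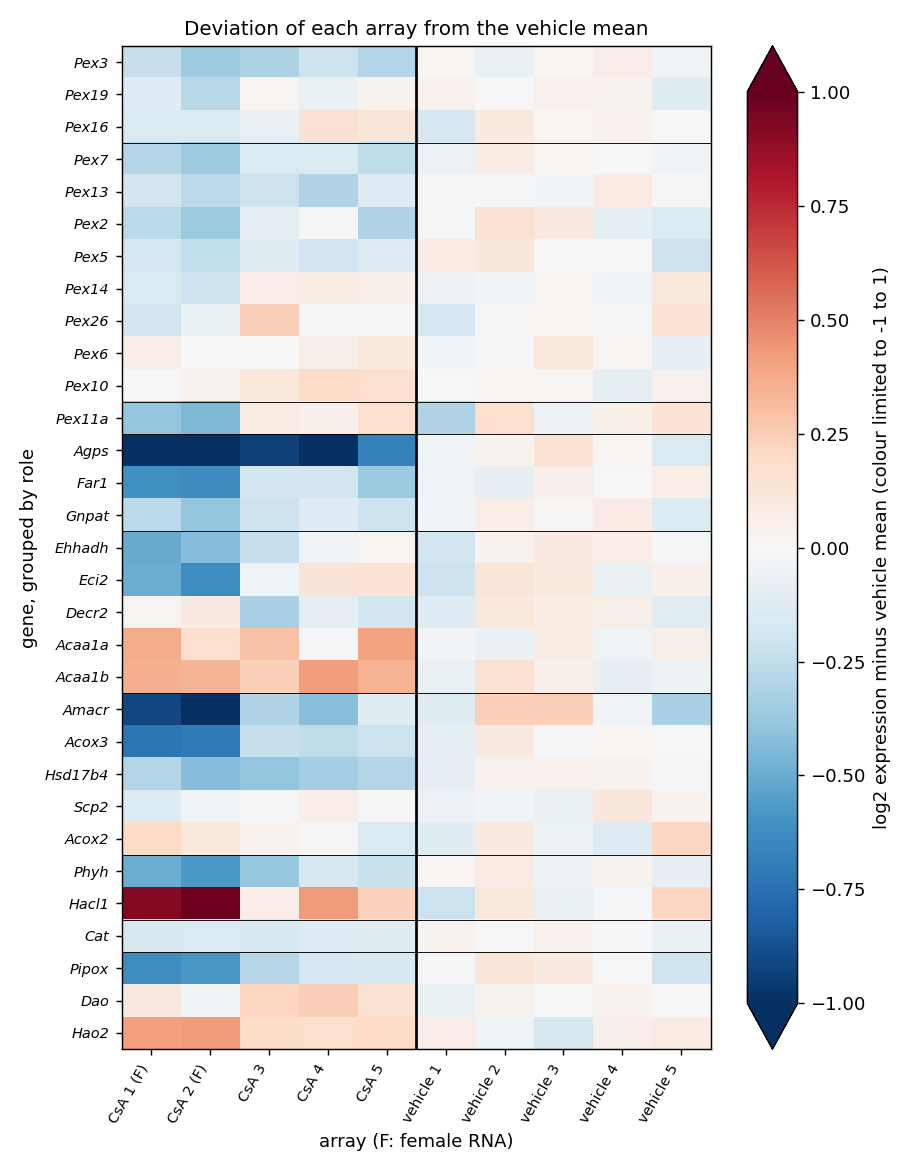
Deviation of each array from the vehicle mean (colour, log2 units, limited to -1 to 1) for the 31 genes (rows, grouped by role) in the 5 CsA arrays (left) and the 5 vehicle arrays (right), where F marks female RNA. Agps is low in all 5 CsA arrays, while Amacr, Far1 and Acox3 are lowest and Hacl1 highest in CsA replicates 1 and 2.

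Markers of the cells that hold most renal peroxisomes were counted in the same fit. Of 15 proximal tubule markers 1 was called, Miox, which rose 1.20-fold, and the median difference over the 15 was -0.01. In the 8 male arrays 1 was called, Slc7a13, at -0.52, and 3 of the 15, Slc7a13 (-6.00), Slc22a12 (-1.13) and Slc22a6 (-0.70), were lower in the female than in the male CsA arrays by a term for those 2 arrays. Of the 15, 9 had a higher mean in the female arrays, and the median female minus male difference was 0.04. The mean level of the 15 markers ranged from 10.61 to 11.17 in CsA and from 11.09 to 11.19 in vehicle arrays, with the 2 female arrays at 10.61 and 10.63 and the male CsA arrays at 11.06 to 11.17. Among markers of other cells, 6 of 8 macrophage genes rose, with a mean level of 7.01 to 7.32 in CsA and 6.36 to 6.57 in vehicle arrays, and 4 of 6 tubular injury genes rose (7.09 to 8.04 and 6.20 to 6.55). Adipocyte genes, of which 1 of 8 rose, ranged from 5.49 to 6.10 in CsA and from 5.20 to 6.09 in vehicle arrays. Limma called 0 of 5 adrenal and 0 of 4 hepatocyte markers, and 0 of them had an unadjusted p under 0.05. In the male arrays 1 hepatocyte marker fell and 2 adipocyte genes rose. In whole kidney, fewer cells of a type and less RNA per cell cannot be told apart, and the part of these cells in the results was not tested.

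Of the 3 ether lipid genes 2 fell, and Agps had the largest difference of all 31. The pathway starts in the peroxisome, where GNPAT acylates dihydroxyacetone phosphate and AGPS swaps that acyl chain for a fatty alcohol, which FAR1 supplies by reducing a fatty acyl-CoA. Agps lay at 7.97, 7.69, 8.53, 8.43 and 8.79 in CsA replicates 1 to 5, against 9.43, 9.50, 9.60, 9.49 and 9.32 in vehicle replicates 1 to 5. Every CsA array was below every vehicle array, and the 2 female arrays were the lowest. The mean was 8.28 ± 0.44 in the CsA group and 9.47 ± 0.10 in the vehicle group (SD, n = 5 each), a log2 difference of -1.18 ± 0.17 (SE, limma adjusted p = 0.00268) or a 2.27-fold lower level. In the 8 male arrays the difference was -0.88 ± 0.10 (SE, limma adjusted p = 0.00455). Agps had the 33rd lowest difference of all 30901 genes over the 10 arrays and the 26th lowest over the male arrays. It stayed called when any array was left out, with differences between -1.31 and -1.04.

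Far1 also fell, by less. It lay at 9.05, 9.03, 9.48, 9.48 and 9.30 in CsA replicates 1 to 5 and at 9.63, 9.58, 9.71, 9.67 and 9.73 in vehicle replicates 1 to 5. The groups did not overlap, and the 2 female arrays were again the lowest. The difference was -0.40 ± 0.10 (SE, limma adjusted p = 0.0338), and -0.24 ± 0.07 in the male arrays, where it missed the threshold (limma adjusted p = 0.113). It also missed when CsA replicate 1, 2 or 5 was left out (adjusted p = 0.0645, 0.0755 and 0.0591), as it did on leaving out each vehicle array in turn (0.0576 to 0.0793). Gnpat had 8.69, 8.57, 8.75, 8.83 and 8.75 in CsA replicates 1 to 5 and 8.93, 9.03, 8.97, 9.04 and 8.82 in vehicle replicates 1 to 5. CsA replicate 4 overlapped vehicle replicate 5, and the difference of -0.24 ± 0.07 (SE) did not pass (limma adjusted p = 0.0661), and was -0.18 in the male arrays. Without vehicle replicate 5 Gnpat passed (limma adjusted p = 0.0453).

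**Figure D3:**
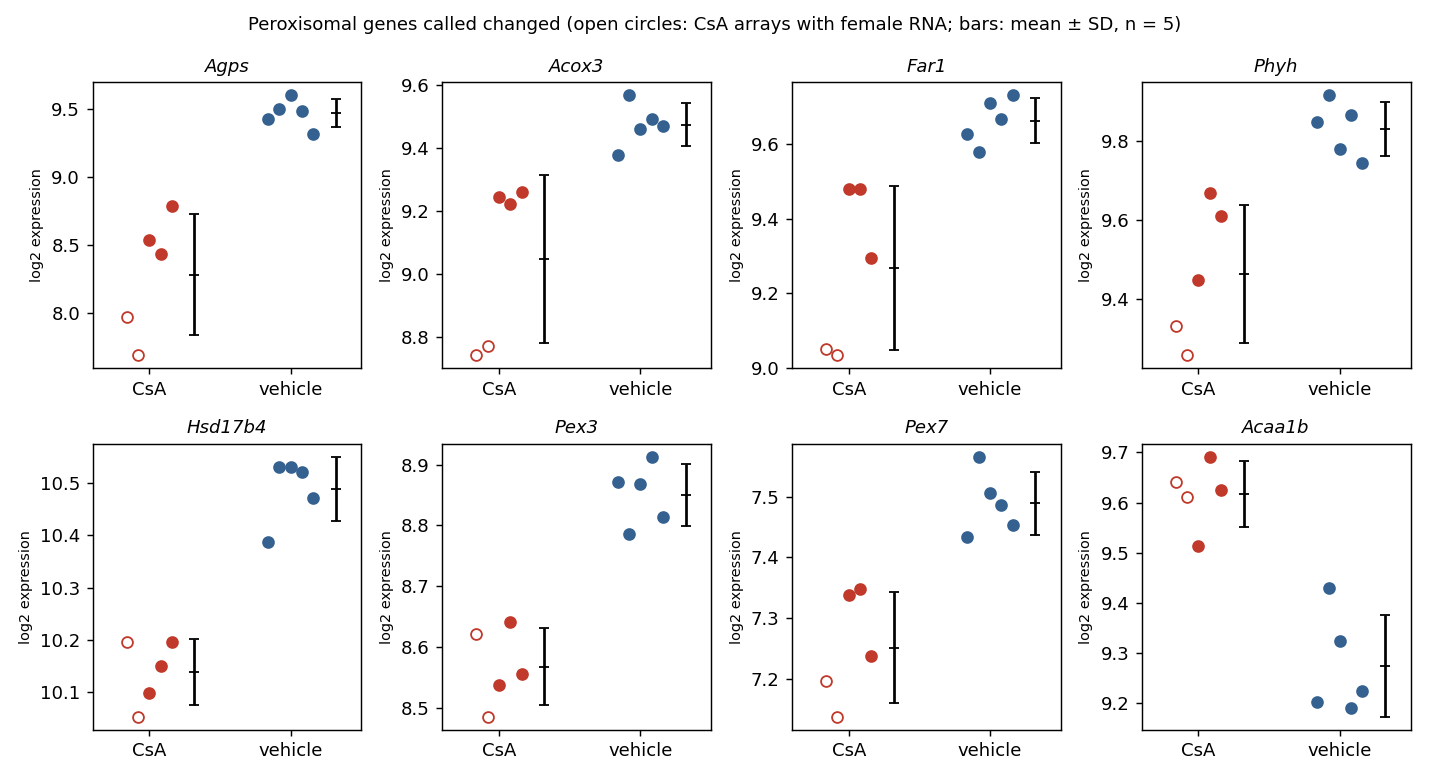
Log2 expression (vertical axes, which do not start at 0) of the 8 called genes in each CsA array (left of each panel, open circles for the 2 arrays with female RNA) and each vehicle array (right), with mean and SD (n = 5). In all 8 panels the groups do not overlap. The open circles are the lowest points for Agps, Acox3, Far1, Phyh and Pex7.

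The promoters of 3 called genes are printed to show the largest fall (Agps), the only rise (Acaa1b) and the only one of the called genes searched that matched a motif (Phyh). They run from 250 bases before to 50 bases after the start of transcription in RefSeq (GRCm38.p6), at chr2:75831927-75832226 on the + strand (Agps), chr9:119157044-119157343 on the - strand (Acaa1b) and chr2:4918746-4919045 on the + strand (Phyh). Capitals mark the half-site AGGTCA or its reverse complement.
Agps: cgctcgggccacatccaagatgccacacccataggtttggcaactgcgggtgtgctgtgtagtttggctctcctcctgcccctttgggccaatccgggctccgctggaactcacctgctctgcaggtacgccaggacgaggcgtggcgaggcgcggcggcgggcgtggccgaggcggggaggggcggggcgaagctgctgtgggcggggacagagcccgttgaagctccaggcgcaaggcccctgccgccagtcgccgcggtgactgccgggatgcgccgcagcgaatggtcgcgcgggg
Acaa1b: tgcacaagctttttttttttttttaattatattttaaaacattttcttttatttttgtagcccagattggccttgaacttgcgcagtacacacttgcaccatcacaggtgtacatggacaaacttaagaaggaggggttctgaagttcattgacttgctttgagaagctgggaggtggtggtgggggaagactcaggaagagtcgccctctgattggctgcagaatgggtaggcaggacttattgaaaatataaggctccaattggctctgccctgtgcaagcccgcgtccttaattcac
Phyh: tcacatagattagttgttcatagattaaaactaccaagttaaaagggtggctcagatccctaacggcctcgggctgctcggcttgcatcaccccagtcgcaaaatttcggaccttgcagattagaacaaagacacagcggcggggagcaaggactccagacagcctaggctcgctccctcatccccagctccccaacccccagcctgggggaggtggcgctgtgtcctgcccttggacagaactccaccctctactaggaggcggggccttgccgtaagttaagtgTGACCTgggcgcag
In the mouse several peroxisomal enzymes are targets of PPAR receptors, which bind repeats of this half-site. RefSeq promoters matched 27 of the 31 genes, with 33 promoters, and those of Hsd17b4, Amacr, Pex2 and Pex19 were not analysed here. The direct repeat of AGGTCA with 1 base of any kind between the copies was found on neither strand in any of them, and in 0.0396% of all 32851 promoters. At so low a share, its absence from 33 promoters says nothing about PPAR binding. The half-site AGGTCA, a search added after the repeat gave no match, was found on either strand in 4 of the 33 (12.1%), those of Cat, Dao, Phyh and Scp2, against 16.3% of all promoters. Any full repeat would also count as a half-site. GC content was 71.0% in the Agps promoter, 43.7% in that of Acaa1b and 57.0% in that of Phyh.

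Oxidation of branched chains and bile acid intermediates had 2 falls among 5 genes. Hsd17b4, the D-bifunctional protein that hydrates and dehydrogenates branched and very long chains, lay at 10.20, 10.05, 10.10, 10.15 and 10.20 in CsA replicates 1 to 5, against 10.39, 10.53, 10.53, 10.52 and 10.47 in vehicle replicates 1 to 5. The groups were well apart and the female and male CsA arrays were mixed. The difference was -0.35 ± 0.06 (SE, limma adjusted p = 0.00690), and -0.34 ± 0.07 in the male arrays (limma adjusted p = 0.0312). It stayed called when any array was left out (differences of -0.38 to -0.33).

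Acox3, an oxidase of branched-chain acyl-CoAs, had 8.74, 8.77, 9.24, 9.22 and 9.26 in CsA replicates 1 to 5 and 9.38, 9.57, 9.46, 9.49 and 9.47 in vehicle replicates 1 to 5. The groups did not overlap, and the 2 female arrays lay well below the 3 male CsA arrays. The difference was -0.43 ± 0.11 (SE, limma adjusted p = 0.0439), and -0.23 ± 0.07 in the male arrays (limma adjusted p = 0.1004). The call was lost on leaving out CsA replicate 1 or 2 (adjusted p = 0.0758 and 0.0971), or each vehicle array in turn (0.0684 to 0.101). Amacr, the racemase that makes branched acyl-CoAs fit for oxidation, spanned 8.61 to 9.48 in CsA and 9.28 to 9.84 in vehicle kidneys, with the 2 female arrays lowest. Its difference of -0.55 ± 0.17 (SE) missed the threshold (limma adjusted p = 0.0845), was -0.28 in the male arrays, and passed without CsA replicate 5 (adjusted p = 0.0458). Acox2, the oxidase of bile acid intermediates, differed by 0.04 ± 0.09 over all arrays and -0.03 ± 0.10 in the male arrays. Scp2, which carries sterols and holds a thiolase, differed by -0.02 ± 0.06 and 0.02 ± 0.07 (SE). Each of these differences was smaller than its SE, and neither gene was called. The sign of both turned in the male arrays, and that of Scp2 also with quantile normalisation of all 10 arrays.

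Of the pair of alpha-oxidation genes, 1 fell and none rose. This pathway removes 1 carbon from phytanic acid, with PHYH hydroxylating it and HACL1 cleaving the product. Phyh had 9.33, 9.26, 9.45, 9.67 and 9.61 in CsA replicates 1 to 5 and 9.85, 9.91, 9.78, 9.86 and 9.74 in vehicle replicates 1 to 5, without overlap. It fell by 0.37 on the log2 scale (SE 0.09, limma adjusted p = 0.0266), and differed by -0.26 ± 0.08 in the male arrays (limma adjusted p = 0.110). The call was lost on leaving out CsA replicate 1, 2 or 3 (adjusted p = 0.0549, 0.0598 and 0.0537), or any vehicle array other than replicate 5 (0.0523 to 0.0692). Hacl1 had 9.25, 9.31, 8.39, 8.75 and 8.56 in CsA replicates 1 to 5 and 8.11, 8.43, 8.25, 8.31 and 8.53 in vehicle replicates 1 to 5. Only the 2 female arrays and CsA replicates 4 and 5 exceeded all vehicle arrays. Its difference of 0.52 ± 0.17 (SE) missed the threshold (limma adjusted p = 0.0896), was 0.24 in the male arrays, and passed without CsA replicate 3 (adjusted p = 0.0397).

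Beta-oxidation of straight chains held the only rise, 1 of its 5 genes. Acaa1b and Acaa1a encode the thiolases of the last step, which carry the PTS2 signal. Acaa1b had 9.64, 9.61, 9.51, 9.69 and 9.63 in CsA replicates 1 to 5, against 9.20, 9.43, 9.32, 9.19 and 9.23 in vehicle replicates 1 to 5. All CsA arrays were higher, the female ones within the range of the male ones. The difference was 0.34 ± 0.07 (SE, limma adjusted p = 0.0125), and 0.33 ± 0.08 in the male arrays, where it missed the threshold (limma adjusted p = 0.0597). It stayed called when any array was left out. Acaa1a differed by 0.24 ± 0.08 (SE, limma adjusted p = 0.113), by 0.23 in the male arrays, and passed without CsA replicate 4 (adjusted p = 0.0350). The 2 genes are close copies, and how far their probes read both transcripts was not tested. Ehhadh, the L-bifunctional enzyme, Eci2, an enoyl-CoA isomerase, and Decr2, a dienoyl-CoA reductase, differed by -0.23, -0.18 and -0.10 without passing. In the male arrays these differences were -0.08, 0.07 and -0.20. Eci2 had 8.15 and 8.02 in the female CsA arrays, below all vehicle arrays (8.44 to 8.77), and 8.60, 8.77 and 8.78 in the male CsA arrays, within or just above that range.

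Limma called 0 of the 4 hydrogen peroxide genes, of which 3 had an unadjusted p under 0.05. Cat, which breaks hydrogen peroxide down, was below all vehicle arrays in all 5 CsA arrays, at 12.41 to 12.45 in CsA and 12.50 to 12.61 in vehicle kidneys. The shift was small, -0.14 ± 0.05 (SE, limma adjusted p = 0.151) and likewise -0.14 in the male arrays. Of the oxidases that produce it, Hao2, which oxidises hydroxy acids, had 10.38, 10.39, 10.15, 10.14 and 10.17 in CsA replicates 1 to 5 and 10.03, 9.93, 9.81, 10.02 and 10.05 in vehicle replicates 1 to 5. The groups did not overlap and the female arrays were the highest, yet the difference of 0.28 ± 0.08 (SE) just missed the threshold (limma adjusted p = 0.0565) and was 0.19 in the male arrays. Pipox, which oxidises pipecolate and sarcosine, differed by -0.36 ± 0.11 (SE, limma adjusted p = 0.0667), by -0.20 in the male arrays, and passed without vehicle replicate 5 (adjusted p = 0.0492). Dao, the D-amino acid oxidase, differed by 0.13 ± 0.07 (SE, limma adjusted p = 0.285) and by 0.20 in the male arrays.

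Of the 12 peroxins 2 fell and none rose. Pex3, which anchors the receptor for membrane proteins, had 8.62, 8.49, 8.54, 8.64 and 8.56 in CsA replicates 1 to 5, against 8.87, 8.79, 8.87, 8.91 and 8.81 in vehicle replicates 1 to 5. The groups did not overlap and sex did not order the CsA arrays. The difference was -0.28 ± 0.06 (SE, limma adjusted p = 0.0164), almost as large in the male arrays at -0.27 ± 0.07, where it missed the threshold (limma adjusted p = 0.0597). It stayed called when any array was left out. Its partners Pex19, the soluble receptor, and Pex16, which recruits PEX3, differed by -0.08 ± 0.07 and -0.02 ± 0.08 (SE), and by -0.0003 and 0.07 in the male arrays, neither called.

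Pex7, the PTS2 receptor, had 7.20, 7.14, 7.34, 7.35 and 7.24 in CsA replicates 1 to 5 and 7.43, 7.57, 7.51, 7.49 and 7.45 in vehicle replicates 1 to 5. The groups did not overlap. The difference of -0.24 ± 0.06 (SE) was only just called (limma adjusted p = 0.0478), was -0.18 ± 0.07 in the male arrays (limma adjusted p = 0.184), and was lost when any array but CsA replicate 4 was left out (adjusted p = 0.0551 to 0.115). Re-normalising by quantiles also ended it (adjusted p = 0.0555). Of the 4 genes among the 31 whose products PEX7 carries, Agps and Phyh fell, Acaa1b rose and Acaa1a was not called.

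Of the other import genes, the docking subunit gene Pex13 had 7.07 to 7.25 in CsA and 7.35 to 7.46 in vehicle kidneys, without overlap, and narrowly missed the threshold (-0.22 ± 0.06 (SE), limma adjusted p = 0.0527), with -0.21 in the male arrays. It passed after centring arrays on their medians (adjusted p = 0.0368). Pex14, its partner in docking, differed by -0.03 ± 0.08, and Pex5, the PTS1 receptor, by -0.17 ± 0.07 (SE). The ligase genes Pex2 and Pex10 differed by -0.20 ± 0.09 and 0.10 ± 0.06, and the extraction genes Pex6 and Pex26 by 0.05 ± 0.06 and -0.01 ± 0.09 (SE), with no call among these 6. In the male arrays Pex14 and Pex5 differed by 0.07 and -0.14, Pex2 and Pex10 by -0.13 and 0.15, and Pex6 and Pex26 by 0.05 and 0.08. Pex11a, which elongates the membrane before division, differed by -0.11 ± 0.14 (SE), and by 0.10 in the male arrays. It was lowest in the 2 female arrays (7.40 and 7.35) and lay at 7.85 to 7.97 in the male CsA arrays and 7.50 to 7.95 in vehicle arrays.

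A term for the 2 female arrays in the fit over all 10 arrays gave the difference between female and male CsA arrays. Limma called 3 of the 31 genes, all lower in the female arrays, and 0.586% of all genes. Agps averaged 7.83 in female and 8.58 in male CsA arrays (-0.75 ± 0.13 (SE), limma adjusted p = 0.0263). Acox3 averaged 8.76 and 9.24 (-0.49 ± 0.08, limma adjusted p = 0.0266), and Eci2 8.09 and 8.72 (-0.63 ± 0.12, limma adjusted p = 0.0379). Hacl1, at 9.28 in female and 8.57 in male CsA arrays, was higher by 0.71 ± 0.14 (SE) and lay at the threshold without passing (limma adjusted p = 0.0500). All 12 peroxins had a lower mean in the female arrays, against 14843 of all 30901 genes. None of the 12 was called by limma, and 3 had an unadjusted p under 0.05, against 2944 of all genes. Hsd17b4, Pex3 and Acaa1b differed between female and male CsA arrays by -0.02, -0.02 and 0.02, none of them called. The differences between CsA and vehicle of 23 of the 31 genes were smaller in size in the male arrays, against 14357 of all 30901 genes. Of 7 genes listed as male-biased in kidney, all 7 were lower in the female arrays by the same term, and 3 of them also fell in the male CsA arrays relative to vehicle. Their mean level was 6.65 and 6.82 in the female CsA arrays, 9.98 to 10.39 in the male CsA arrays and 10.54 to 10.98 in vehicle arrays, and the part of that difference in the results was not tested. Of 4 genes listed as female-biased, Slc7a12 and Prlr rose in CsA kidneys over all arrays (2.00 and 1.74) and Prlr also in the male arrays (1.20, limma adjusted p = 0.0201). By the female term Prlr was higher in the female arrays, and Slc22a28 of the same list was lower (-3.43). The same term called neither Slc7a12 (0.93) nor Cyp4a14 (0.18), and Cyp4a14 was not called between CsA and vehicle over all arrays either.

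**Figure D4:**
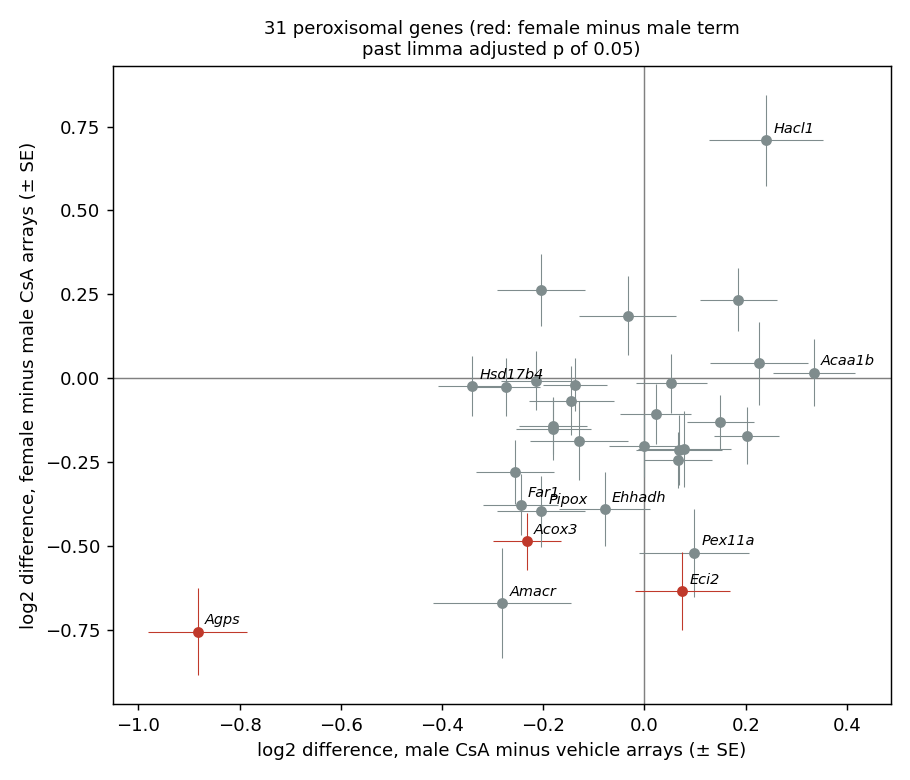
For the 31 genes, the log2 difference between male CsA and vehicle arrays (horizontal, ± SE) and that between female and male CsA arrays (vertical, ± SE), with genes past a limma adjusted p of 0.05 for female against male arrays in red. Agps lies low on both axes (-0.88 and -0.75), Eci2 on the vertical axis (-0.63), and Hsd17b4 and Acaa1b near 0 on the vertical axis. Both axes use the male CsA arrays.

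Sets of other genes around the peroxisome were counted in the same fit. Of 60 measured genes on 5 lists, 10 fell and 2 rose over all 10 arrays. That is 20% of the 60, against 6.49% of all genes. In the male arrays 3 fell and none rose, or 5% of the 60 against 3.17% of all genes. Over all arrays the median difference of the 60 genes was -0.08, and over the male arrays -0.04. Of the 10 called falls the largest were in Nudt19 and Nudt12. Nudt19, a CoA hydrolase first described in mouse kidney as an androgen-regulated protein, averaged 10.31 ± 0.36 in the CsA group and 11.28 ± 0.13 in the vehicle group (SD, n = 5 each), a difference of -0.97 ± 0.15 (SE, limma adjusted p = 0.00350) and of -0.74 ± 0.12 in the male arrays (limma adjusted p = 0.0142). Nudt12, an NADH hydrolase, fell by 0.69 on the log2 scale (limma adjusted p = 0.0167), and also fell in the male arrays (-0.45, limma adjusted p = 0.0325). Nudt7, another CoA hydrolase, differed by -0.28 (limma adjusted p = 0.0402), and by -0.27 in the male arrays (limma adjusted p = 0.0624). These were the 3 calls among 18 further lipid enzymes. Acot12, an acetyl-CoA hydrolase, and Crot, the carnitine octanoyltransferase, both chosen after their values were seen, had lower values in all CsA arrays than in any vehicle array and missed the threshold (-0.71 and -0.60, limma adjusted p = 0.0627 and 0.0522). In the male arrays they differed by -0.33 and -0.30, again without overlap or a call. By the term for the 2 female arrays both were lower there than in the male CsA arrays (-0.96 and -0.77, limma adjusted p = 0.00234 and 0.00241). Both passed without CsA replicate 4 (adjusted p = 0.0420 and 0.0355) or 5 (0.0399 and 0.0394), with the filter on mean signal (0.0430 and 0.0348) and after centring (0.0498 and 0.0415), and Crot also with quantile normalisation (0.0467). Acot3, among the same 18 enzymes and also chosen after its values were seen, went the other way. It was higher by 0.37 and missed the threshold (limma adjusted p = 0.0514), with overlapping groups, and differed by 0.29 in the male arrays.

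Of 9 further peroxins and division factors 2 fell. Acbd5, a tether between peroxisomes and the endoplasmic reticulum, averaged 8.47 ± 0.19 in the CsA group and 8.94 ± 0.04 in the vehicle group (SD, n = 5 each), a difference of -0.47 ± 0.09 (SE, limma adjusted p = 0.00996) and of -0.34 ± 0.07 in the male arrays (limma adjusted p = 0.0318). The fission GTPase gene Dnm1l, shared with mitochondria, fell just past the threshold (-0.29, limma adjusted p = 0.0499), and was lost with quantile normalisation (adjusted p = 0.0810) and array weights (0.0534). Among 11 transporters and membrane proteins, Slc25a17, a carrier of coenzyme A and nucleotides, fell (-0.31, limma adjusted p = 0.0126). Pxmp2, a membrane channel, rose by 0.46 and the acyl-CoA synthetase gene Acsl1 by 0.44 (limma adjusted p = 0.0118 and 0.0185). The lipid importers Abcd3 and Slc27a2 differed by -0.08 ± 0.06 and -0.14 ± 0.06 (SE), and by -0.08 and -0.10 in the male arrays, neither called.

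Of 13 further redox and amino acid enzymes, Ddo, the D-aspartate oxidase, and Dhrs4, a carbonyl reductase, fell (-0.30 and -0.39, limma adjusted p = 0.0316 and 0.0437). Among 9 further ether lipid genes, Selenoi and Chpt1, phosphotransferases that attach the ethanolamine or choline head group to diacyl and ether lipids, fell by 0.32 and 0.36 on the log2 scale (limma adjusted p = 0.0189 and 0.0481). None of these 4, nor Slc25a17, Pxmp2, Acsl1 or Dnm1l, passed in the male arrays (adjusted p = 0.0605 to 0.203), where Dhrs4 and Chpt1 differed by -0.24 and -0.21 and the others by less than 1.5 times from their values over all arrays. Selenoi was lost without vehicle replicate 3 (adjusted p = 0.0546) and Acsl1 likewise (0.0502). Dnm1l, Chpt1, Nudt7, Ddo and Dhrs4 were each lost without 6 or more of the 10 arrays in turn, with adjusted p of 0.0551 to 0.112 in those fits, and Chpt1 also with array weights (0.0574). Limma called 0 of 8 PPAR receptors, partners and coactivators, of which 2 had an unadjusted p under 0.05. Ppara, Ppargc1a and Hnf4a differed by -0.18 ± 0.12, -0.07 ± 0.09 and 0.05 ± 0.06 (SE), and by -0.28, -0.21 and 0.08 in the male arrays. There limma again called 0 of the 8, and 3 had an unadjusted p under 0.05 (37.5%, against 18.8% of all genes). The male groups lay fully apart for 3 of the 8 (37.5%, against 15.1% of all genes), with Ppargc1a lower and Hnf4a and Ppard higher. Ppard, chosen after its values were seen, was higher in all CsA arrays than in any vehicle array without passing (0.21, limma adjusted p = 0.0746), and likewise in the male arrays (0.22, limma adjusted p = 0.135). It passed with quantile normalisation (adjusted p = 0.0392), with the filter on mean signal (0.0453) and with eBayes trend and robust (0.0430).

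**Figure D5:**
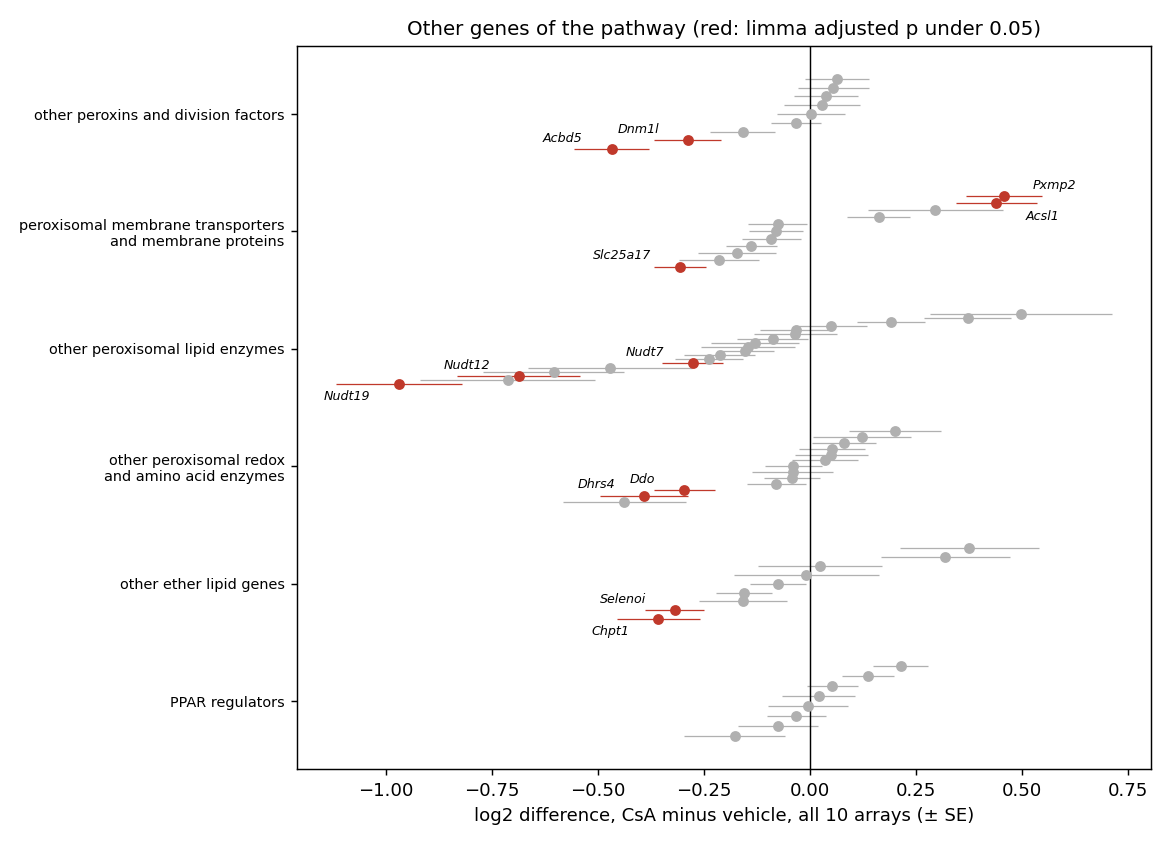
Log2 difference between CsA and vehicle kidneys over all 10 arrays (horizontal axis, ± SE) for genes of the 5 further peroxisomal and ether lipid lists and for PPAR regulators. Called genes are red and named: 10 lie below 0, led by Nudt19 at -0.97, and 2 lie above.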

How the data were processed

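Kidney RNA of 10 samples was hybridised to an Affymetrix mouse gene array, 1 array per sample. The deposited values are log2 expression values per feature, and the submitters' processing notes name RMA and Partek 6.4 without settings. The annotation version and genome build are not given in the sources used here. Both deposited tables held the same 41345 features, with a largest difference of 0. Symbols were updated through RefSeq (GRCm38.p6), and for a gene with several features the one of highest mean was kept, giving 30901 genes. CsA and vehicle, grouped by source description, were compared with limma 3.58.1 in R 4.3.3 (lmFit, eBayes, 2-sided, no covariate), adjusted by Benjamini-Hochberg over all genes. A second fit added a term for the 2 arrays with female RNA. The procedure was tested on simulated data. Differences are CsA minus vehicle, and arrays compress folds near background and near saturation, so levels of different genes are not compared. Detection calls and depth do not apply, and the number of arrays limits precision.

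All 31 genes are described. From each further list up to 4 called genes with the smallest adjusted p are named, besides 5 genes listed by name, and the values of some other genes are not reported here. Members, lists and the males-only alternative were chosen with earlier results of these data known. The planned search of proteins for import signals was not run, since no protein sequences were used here.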

Additional observations from a re-analysis of the deposited data

Results flagged for a closer look

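Of 62 groups of 5 arrays, 1 per gene and treatment, 2 held an array far from the others by Dixon's ratio, a number that chance alone gives at about 1 group in 20. Pex19 in vehicle replicate 5 was 8.18, with the other vehicle arrays between 8.30 and 8.34. Pex13 in vehicle replicate 4 was 7.46, with the other vehicle arrays between 7.35 and 7.36.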

How the results depend on the processing

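The count of called genes was 2004 over all arrays and 980 in the male arrays, and 1134 to 1927 when each array was left out. The count of called peroxisomal genes was 8, against 2 in the male arrays, 13 with eBayes trend and robust (11 lower, 2 higher) and 4 to 9 when each array was left out. With trend and robust Pex13, Gnpat, Cat, Hao2 and Pipox were added to the 8. A filter at the 25th percentile of mean signal, with fewer genes in the fit and the adjustment, gave 12, adding all of those but Cat. Centring on medians gave 9, quantile normalisation 7, and array weights and the mean of a gene's features 8 each. Centring raised the share of lower calls among all genes to 67.3%, against 54.5% as deposited. The count of 3 for the female term, all lower, was also 3 after centring. It was 4 under the filter and with quantile normalisation, each with 3 lower and 1 higher. In the male arrays the sign turned, without a call either way, for Pex16 (0.0683), Pex14 (0.0664), Pex26 (0.0785), Pex11a (0.0979), Eci2 (0.0749), Acox2 (-0.0328) and Scp2 (0.0221). It also turned for Pex26 with quantile normalisation (0.0067) and array weights (0.0172), and for Scp2 with quantile normalisation (0.0282). Leaving out each array turned the sign of uncalled differences for Pex16 (-0.0603 to 0.0153), Pex14 (-0.0571 to 0.0119), Pex26 (-0.0675 to 0.0404) and Scp2 (-0.041 to 0.0092). The cause of these changes was not tested. No paired analysis was possible because the labels give the arrays no replicate numbers shared between groups.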
